A study of Mus musculus with 8 samples.

Results

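The sodium-potassium pump subunits described here are Atp1b1, Atp1b2, Atp1b3 and Fxyd5, 4 of the 19938 genes with a value of their own on these arrays. They were chosen by name, as a gene family around Atp1b1, with the difference between the genotypes already known for every gene. The signals of these 4 genes in Bcl6 cKO against wild type are therefore given as a description, and they support nothing further. RNA came from naive CD4 T cells, the helper T cells that have not yet met antigen, sorted from mice. The 4 Bcl6 cKO samples are from animals labelled T cell-specific conditional Bcl6-/-, which lack the transcriptional repressor Bcl6 in T cells, and the 4 wild-type samples are labelled Wild type. All 8 samples had received anti-CD3 and anti-CD28 antibody for 24 hours and carry the tag Tf0, whose meaning is not given. The labels give no strain, age, driver of the deletion or removed exons, and nothing states which samples came from separate mice, so every spread below is that between these samples.

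The pump, a P-type ATPase of the plasma membrane, uses ATP to expel sodium ions and take up potassium ions. Its catalytic alpha subunit carries the ions, its beta subunit is a glycoprotein that the alpha subunit needs to fold, leave the endoplasmic reticulum and reach the surface, and small FXYD proteins adjust its kinetics. In T cells the resulting gradients drive sodium-coupled uptake of amino acids and nucleosides and hold the membrane potential on which calcium entry after receptor stimulation depends. Atp1b1 encodes the widely expressed beta-1 subunit, Atp1b2 the beta-2 subunit known as an adhesion molecule on glia, Atp1b3 the beta-3 subunit known on leukocytes as CD298, and Fxyd5 the FXYD protein dysadherin, which also affects cell adhesion.

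The 4 genes lie on chromosomes 1, 11, 9 and 7, in the order Atp1b1, Atp1b2, Atp1b3 and Fxyd5, and none on chromosome 16, which carries Bcl6. Promoter windows of 250 bases before to 50 bases from the transcript start were taken from RefSeq (GRCm38.p6), where 3 of the 4 genes matched with 4 windows, Atp1b3 having 2. The window of Atp1b1, the subunit whose signal differed between the genotypes, is shown beside one of Atp1b3 and that of Fxyd5, whose signals differed little. All 3 lie on the minus strand, at chr1:164458306-164458605 for Atp1b1, chr9:96364382-96364681 for Atp1b3 and chr7:31042282-31042581 for Fxyd5. Each is written 5′ to 3′ along the gene, and capitals mark matches on either strand to the letters named after them.
Atp1b1: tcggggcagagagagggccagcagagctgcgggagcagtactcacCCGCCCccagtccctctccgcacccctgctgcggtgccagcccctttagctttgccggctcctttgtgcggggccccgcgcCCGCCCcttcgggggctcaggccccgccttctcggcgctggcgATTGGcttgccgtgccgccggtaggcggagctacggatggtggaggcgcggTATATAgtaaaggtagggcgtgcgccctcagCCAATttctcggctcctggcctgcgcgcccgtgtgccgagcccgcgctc
Atp1b3: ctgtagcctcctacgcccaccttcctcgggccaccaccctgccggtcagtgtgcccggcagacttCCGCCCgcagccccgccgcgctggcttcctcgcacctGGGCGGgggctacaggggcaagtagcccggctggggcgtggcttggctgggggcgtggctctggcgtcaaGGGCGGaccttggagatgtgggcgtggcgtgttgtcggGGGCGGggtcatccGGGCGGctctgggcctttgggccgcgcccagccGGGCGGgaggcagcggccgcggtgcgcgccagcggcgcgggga
Fxyd5: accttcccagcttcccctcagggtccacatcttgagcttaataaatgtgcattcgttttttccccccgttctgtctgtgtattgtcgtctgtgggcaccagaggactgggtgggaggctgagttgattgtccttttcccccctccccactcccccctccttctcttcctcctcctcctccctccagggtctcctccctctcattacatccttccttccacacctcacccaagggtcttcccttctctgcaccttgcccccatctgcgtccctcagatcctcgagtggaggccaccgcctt

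The letters searched on both strands were TTCCTNGAA, a core read by Bcl6 and similar to that of STAT factors, the GC box (GGGCGG), the CCAAT box, the E box (CACGTG) and the forms TATATA and, as the other, TATAAA of the TATA box. TTCCTNGAA, present in 1.59% of all 32851 windows, occurs in none of the 4 windows. In Atp1b1, TATATA lies 30 to 25 bases before the start (positions -30 to -25), and 5.67% of all windows hold these letters. The same window has GGGCGG at 2 places and CCAAT at 2 places, found in 35.7% and 37.4% of all windows. The printed Atp1b3 window has 6 GC boxes and neither form of the TATA box nor a CCAAT box, and its second window, at chr9:96363666-96363965, has 1 E box, present in 7.15% of all windows. The Fxyd5 window has none of the 6 sets of letters. GC content was 71% in the Atp1b1 window, 76% and 74.7% in those of Atp1b3 and 57.3% in that of Fxyd5, against a median of 52.7% over all windows. No matches overlapped one another, and a match or its absence is a description of these letters only.

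The samples were checked before the subunits were compared. Bcl6 itself is read through 1 cluster and was not lower on the arrays labelled knockout (8.74 ± 0.27 in Bcl6 cKO against 8.37 ± 0.20 in wild type, log2 signal, SD, n = 4 each). Since the removed exons are not known here, this signal does not check the labels. The T cell genes Cd3e and Cd4 averaged 13.12 and 12.79 in Bcl6 cKO, against 13.18 and 12.88 in wild type. Of 8 T cell markers measured, 1 was above wild type, and Cd3d had the largest log2 difference (-0.17). Of 6 markers of naive or activated cells, 3 were above wild type. None of the markers in these sets passed limma over all genes, in which 0.221% of all genes passed. The mean signal of 16 markers of CD8 T, B, myeloid, NK and erythroid cells ran from 6.33 to 6.44 on Bcl6 cKO arrays and from 6.36 to 6.43 on wild-type arrays, and none of the 16 passed limma over all genes (2 at an unadjusted p under 0.05, which 10.8% of all genes had). The X-linked RNA Xist and the Y-linked genes Kdm5d and Uty split the arrays unevenly. High Y-linked signal was found on 1 Bcl6 cKO and 3 wild-type arrays, and low Y-linked signal on 3 Bcl6 cKO arrays and 1 wild-type array, replicate 4. Wild-type replicate 4 also stood apart from the others, with an interquartile range of deviations from each gene's median of 0.18, against 0.085 to 0.115 on the other 7 arrays.

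Atp1b1 was lower in Bcl6 cKO cells, and the other 3 subunits differed by less than 0.1 on the log2 scale. The log2 signal of Atp1b1 was 10.60, 10.23, 10.35 and 10.47 in Bcl6 cKO replicates 1 to 4, against 11.19, 11.35, 11.26 and 11.42 in wild-type replicates 1 to 4. Every Bcl6 cKO array was below every wild-type array, with a gap of 0.59 between the highest Bcl6 cKO array and the lowest wild-type array. The means were 10.41 ± 0.16 in Bcl6 cKO and 11.30 ± 0.10 in wild type (SD, n = 4 each), a log2 difference of -0.89 with a standard error of 0.08 and a 95% confidence interval of -1.07 to -0.71, which is 1.86-fold lower in Bcl6 cKO. This is the difference with which the family was chosen: among the 19938 genes it ranked 3 by p and 12 by size of decrease, and its adjusted p in limma was 0.0031. Because these are bulk samples, fewer cells that contain the RNA and less RNA per cell cannot be told apart.

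Atp1b3, the beta subunit known as a leukocyte surface antigen, differed little from wild type. Its log2 signal was 12.82, 12.79, 12.75 and 12.68 in Bcl6 cKO replicates 1 to 4, against 12.77, 12.90, 12.80 and 12.83 in wild-type replicates 1 to 4. The groups overlapped, and the log2 difference was -0.07 with a 95% confidence interval of -0.18 to 0.05. A second cluster annotated to Atp1b3 gave 12.31 ± 0.07 in Bcl6 cKO and 12.37 ± 0.13 in wild type (SD, n = 4 each), a difference of -0.06. Both clusters therefore differed between the genotypes by a similar small amount. Whether the second cluster reads Atp1b3 itself or a copy of the gene could not be checked here.

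Fxyd5, the regulatory protein among the members, varied least between wild-type arrays. Its log2 signal was 13.82, 13.74, 13.83 and 13.74 in Bcl6 cKO replicates 1 to 4, against 13.83, 13.86, 13.83 and 13.82 in wild-type replicates 1 to 4. Bcl6 cKO replicates 2 and 4 lay below all wild-type arrays, while replicates 1 and 3 lay within their range. The log2 difference was -0.05 with a 95% confidence interval of -0.16 to 0.05.

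Atp1b2, the beta subunit best known from the nervous system, had a log2 signal of 7.14, 7.19, 7.15 and 7.08 in Bcl6 cKO replicates 1 to 4, against 7.24, 6.96, 6.98 and 7.12 in wild-type replicates 1 to 4. The 4 Bcl6 cKO arrays lay inside the wild-type range, which was the wider of the groups (SD 0.05 in Bcl6 cKO and 0.13 in wild type, n = 4 each). The log2 difference was 0.07 with a 95% confidence interval of -0.08 to 0.21. Y-linked genes on the arrays with high Xist, whose cells should lack their RNA, read between 4.58 and 5.83, but this level differs between clusters, so whether the Atp1b2 signal stands above its own background is not known. Of the 4 subunits, 1 passed an adjusted p of 0.05 in limma, against 0.221% of all genes, and 1 had groups that did not overlap, against 5.97% of all genes. Since the members were chosen with this contrast in view, nothing is read from those shares.

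**Figure D1:**
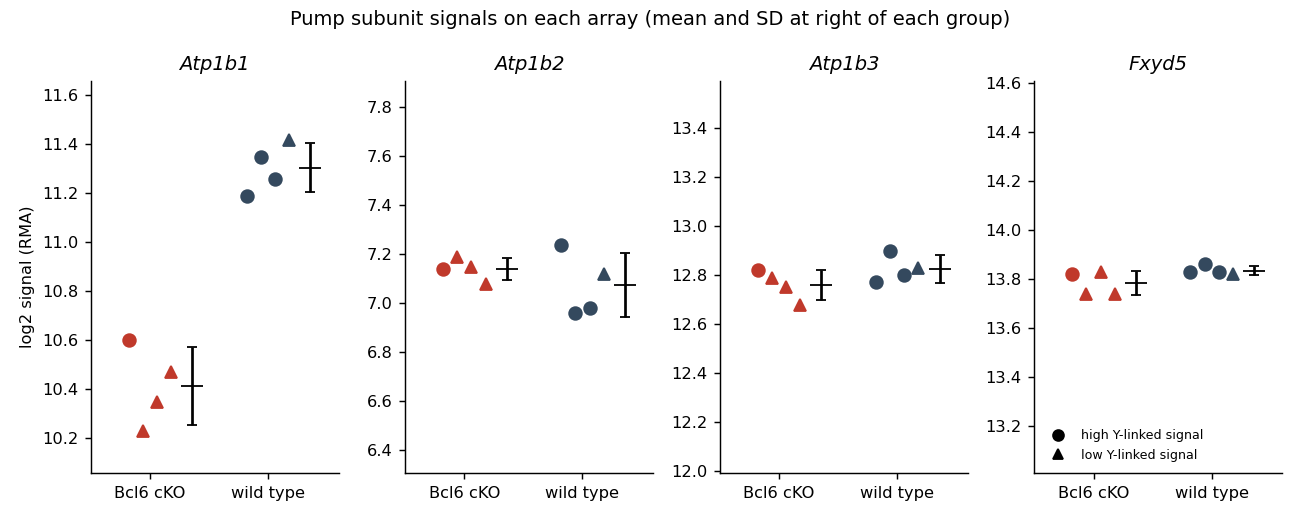
Log2 signal of each subunit on each array, with Bcl6 cKO left of wild type. Circles are arrays with high and triangles arrays with low Y-linked signal, bars show mean and SD (n = 4 each), and every panel spans the same height on the log2 scale. Atp1b1 lies between 10.23 and 10.60 on Bcl6 cKO arrays and between 11.19 and 11.42 on wild-type arrays, while the groups of the other 3 genes overlap.

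The balance between the subunits was then read within each array, where a shift of a whole array cancels. The log2 signal of Atp1b1 minus that of Atp1b3 averaged -2.35 ± 0.17 in Bcl6 cKO and -1.52 ± 0.08 in wild type (SD, n = 4 each). It lay between -2.56 and -2.21 on Bcl6 cKO arrays, against -1.58 to -1.41 on wild-type arrays, so the groups did not overlap. With Fxyd5 in place of Atp1b3 it lay between -3.51 and -3.22 in Bcl6 cKO, against -2.64 to -2.40 in wild type. With Atp1b2 it lay between 3.04 and 3.46 in Bcl6 cKO, against 3.95 to 4.39 in wild type. Atp1b3 minus Fxyd5 averaged -1.02 ± 0.06 in Bcl6 cKO and -1.01 ± 0.04 in wild type (SD, n = 4 each), a change of -0.01. Only the change of such a difference between genotypes can be read, because the levels of different clusters are not on a common scale. That change shows unequal change of the genes in a pair. Atp1b1 alone already separated the groups by 0.59, so non-overlap of its differences restates the difference with which the family was chosen.

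**Figure D2:**
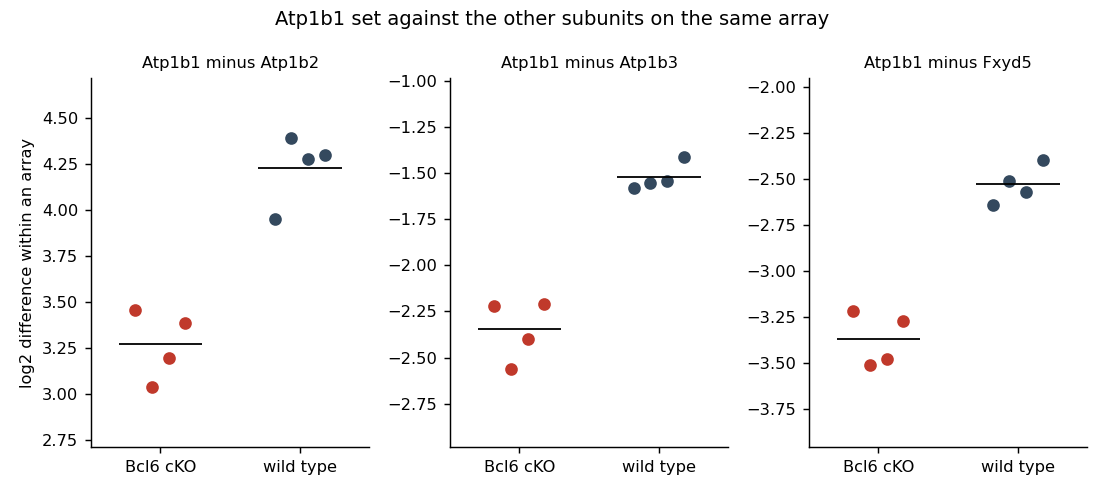
Log2 signal of Atp1b1 minus that of Atp1b2, Atp1b3 or Fxyd5 on the same array, with Bcl6 cKO left of wild type, points for arrays and lines for group means (n = 4 each). All 3 differences are lower on every Bcl6 cKO array than on any wild-type array, as is Atp1b1 alone.

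Sex differed between the groups, so Atp1b1 was also compared among arrays alike in Y-linked signal. Among arrays with high Y-linked signal, Bcl6 cKO replicate 1 read 10.60, and the 3 wild-type arrays averaged 11.27, a difference of -0.67. Among arrays with low Y-linked signal, the 3 Bcl6 cKO arrays averaged 10.35, and wild-type replicate 4 read 11.42, a difference of -1.07. Each of these comparisons rests on 1 array of a genotype. For low Y-linked signal that array, wild-type replicate 4, had the widest deviations from gene medians of all arrays (interquartile range 0.18). In these fits to 4 arrays neither Atp1b1 (adjusted p in limma 0.549 and 0.125) nor any other of the 19938 genes passed, while 1074 and 2955 genes had an unadjusted p under 0.05. With sex as a term over all 8 arrays the difference was -0.87 with a standard error of 0.10 (adjusted p = 0.0201 in limma), and 0.0502% of all genes passed. Atp1b1 was chosen with the contrast known, so this adjusted p describes the fit and adds no support.

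The rule that chose the members did not use whether the genotype difference was unequal between the sexes, and this was tested in limma with the product of genotype and sex. The difference of Atp1b1 was 0.40 less negative on arrays with high Y-linked signal (SE 0.15, unadjusted p = 0.0275 in limma), which did not pass over all genes (adjusted p = 0.385). The products of Atp1b2, Atp1b3 and Fxyd5 were 0.06, 0.09 and 0.03, with adjusted p-values in limma of 0.91, 0.795 and 0.93. Over all genes 1 passed, or 0.00502%. Each product rests on the 2 arrays that are alone in their genotype and sex, which the fit takes to be as variable as the others. Of these, wild-type replicate 4 had an interquartile range of deviations of 0.18, against 0.085 to 0.115 on the other arrays.

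Further subunits of the pump and of its close relative, the proton-potassium pump, were read in the same fit. The 11 genes of this kind that were measured read between 5.39 and 8.81 on every array. Of the 11, 6 were above and 5 below wild type, and their median log2 difference of 0.0025 equalled that of all genes tested. None of the 11 passed limma over all genes, and 1 had an unadjusted p under 0.05. Since only 0.221% of all genes passed, the absence of calls among so few genes says nothing about them. The gene with the unadjusted p was Fxyd3, a FXYD protein of epithelia, which read 7.30, 7.43, 7.48 and 7.34 in Bcl6 cKO replicates 1 to 4, against 7.18, 7.18, 7.06 and 7.37 in wild-type replicates 1 to 4. Wild-type replicate 4, the wild-type array with low Y-linked signal, lay among the Bcl6 cKO arrays. The log2 difference of 0.19 did not pass (adjusted p = 0.36 in limma). Arrays with low Y-linked signal read 7.34 to 7.48 and those with high Y-linked signal 7.06 to 7.30, without overlap. The part of sex in this difference was not tested.

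Atp1a4, the catalytic subunit of sperm, had a log2 difference of -0.02, and Atp1b4, a muscle beta-type protein, of 0.0025. Among the FXYD genes, Fxyd1 (phospholemman, 0.01), Fxyd2 (the gamma subunit of kidney, -0.01), Fxyd4 (0.04), Fxyd6 (-0.01) and Fxyd7 (-0.08) stayed within 0.1 of wild type. The proton pump genes of stomach, Atp4a and Atp4b, had differences of 0.01 and -0.08, and the related Atp12a of 0.01. The 95% confidence intervals of these 11 genes together reached from -0.28 to 0.35. As for Atp1b2, whether these signals stand above the background of their own clusters is not known, and where they do not, a small difference says nothing of the RNA.

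**Figure D3:**
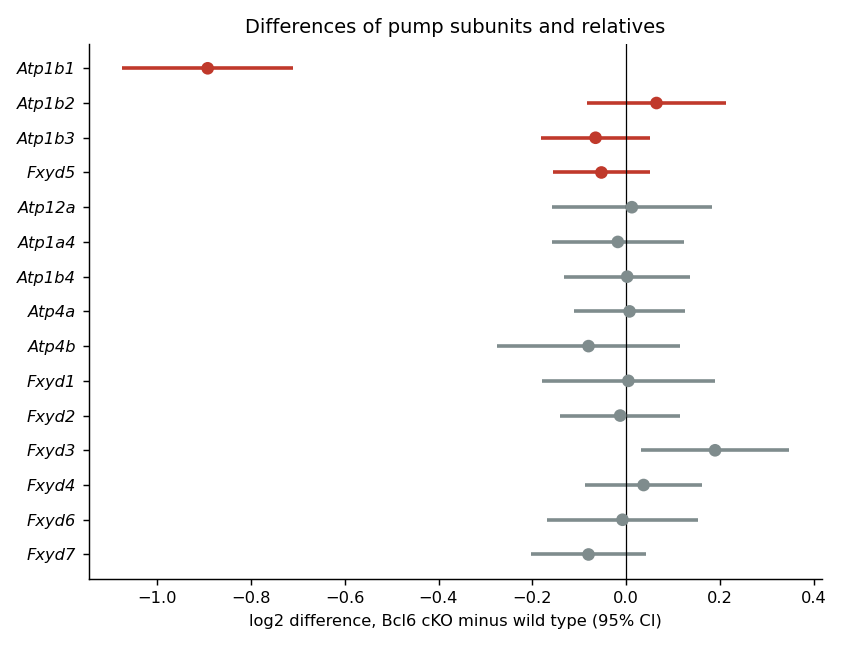
Log2 difference (Bcl6 cKO minus wild type) of the 4 members (red) and the 11 other measured pump subunits and relatives (grey), with 95% confidence intervals from limma. Atp1b1 lies at -0.89, and the intervals of the other 14 genes lie between -0.28 and 0.35.

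Beyond the pump, 4 lists were compared. They hold other P-type ATPases, sodium-coupled transporters and exchangers, potassium and volume channels, and genes listed as pump regulators. An unadjusted p under 0.05 was found for 10.8% of all genes, 31.8% of the potassium and volume list, 17.9% of the other P-type ATPases, 17.4% of the sodium-coupled list, 9.09% of the other pump subunits and 8% of the regulators. The lists were drawn up with earlier results known, and nothing is read from these shares. Since limma passed 0.221% of all genes, nothing is read from a list without a call either. Of the 28 other P-type ATPases measured, 13 were above and 15 below wild type, and their median log2 difference was -0.02. None of the 28 passed limma over all genes (5 at an unadjusted p under 0.05). Atp2a3, a calcium pump of the endoplasmic reticulum, had a difference of -0.22 and the lipid flippases Atp8b2 and Atp11a of -0.21 and 0.34 (adjusted p from 0.195 to 0.279 in limma).

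Of 23 measured transporters and exchangers listed as sodium-coupled, some of them in endosomes, lysosomes or mitochondria, 12 were higher and 11 lower than wild type in mean signal. Their median log2 difference was 0.03. None passed limma over all genes, against 0.221% of all genes (4 at an unadjusted p under 0.05). Slc28a2, which takes up purine nucleosides with sodium, read 9.76, 9.59, 9.46 and 9.49 in Bcl6 cKO replicates 1 to 4, against 9.88, 10.27, 9.95 and 10.33 in wild-type replicates 1 to 4. Its groups did not overlap, and its difference of -0.53 had an adjusted p of 0.0891 in limma. The endosomal sodium-proton exchanger Slc9a9 had a difference of -0.34 and the glycine transporter Slc6a9 of 0.28 (adjusted p = 0.131 and 0.352 in limma).

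Of 22 measured potassium and volume channels and transporters, 11 were above and 11 below wild type. Their median log2 difference was 0, and none passed, against 0.221% of all genes. An unadjusted p under 0.05 was found for 7 of the 22. Slc12a7, a potassium-chloride cotransporter, read 9.81, 9.50, 9.58 and 9.51 in Bcl6 cKO replicates 1 to 4, against 10.08, 10.10, 9.89 and 10.16 in wild-type replicates 1 to 4. Its difference of -0.46 lay just outside the threshold (adjusted p = 0.0561 in limma). Lrrc8a, the essential subunit of the volume-regulated anion channel, had a difference of -0.27, and Kcnk5, a background potassium channel, of 0.36 (adjusted p = 0.108 and 0.131 in limma).

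Among 25 measured regulators, 10 were above and 15 below wild type. Their median log2 difference was -0.03, and 2 had an unadjusted p under 0.05. Arrb1, a beta-arrestin that uncouples activated receptors from G proteins, was the 1 gene that passed, and it fell by 0.47 on the log2 scale (adjusted p = 0.0423 in limma). It read 9.65, 9.28, 9.52 and 9.42 in Bcl6 cKO replicates 1 to 4, against 9.90, 9.92, 9.90 and 10.01 in wild-type replicates 1 to 4, and its groups did not overlap. It did not pass with sex as a term (adjusted p = 0.184), with the replicate block (adjusted p = 0.067) or after quantile normalization (adjusted p = 0.0898), and it passed in 1 of the 8 fits that leave out an array, that without Bcl6 cKO replicate 1 (adjusted p from 0.0138 to 0.164 over the 8). Its relative Arrb2 had a difference of -0.17 and the kinase gene Prkcb of -0.12 (adjusted p = 0.219 and 0.47). Over the 5 lists 1 of 109 genes passed (0.917%), against 0.221% of all genes, and the lists were drawn up with the call of Arrb1 already known.

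**Figure D4:**
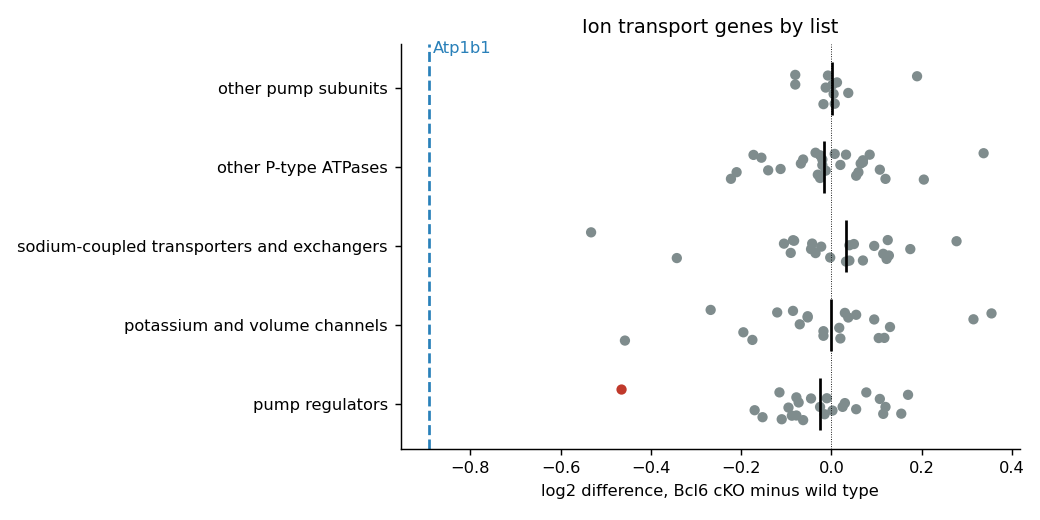
Log2 difference (Bcl6 cKO minus wild type) of the 109 listed genes, by list, with a point for each gene. Vertical position within a list is arbitrary, black lines are list medians and the dashed line is Atp1b1. The single red point is Arrb1, a listed pump regulator and the list gene past the threshold. All list genes lie between -0.53 and 0.36, to the right of Atp1b1.

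The genes whose pattern over the 8 arrays was most like that of Atp1b1 were found by the root mean square difference between mean-centred log2 signals. They were Smpdl3a, an acid sphingomyelinase-like phosphodiesterase (0.181), Il10ra, the interleukin-10 receptor chain that binds the ligand (0.194), Traf3ip3, a lymphocyte adaptor (0.195), and Ndrg1, a gene induced by hypoxia and stress (0.196). After them came Neurl3, a ubiquitin ligase (0.2), Tlr1, a receptor for bacterial lipopeptides (0.211), Rasgrp2, an exchange factor for Rap (0.212), and Mtss1, a membrane-bending regulator of actin (0.214). For scale, Atp1b1 itself had a standard deviation of 0.493 over the 8 arrays, and a gene identical to it in pattern would score 0. All 8 were lower in Bcl6 cKO, by 0.53 to 0.93 on the log2 scale, which a likeness to Atp1b1 fixes, so no test is given. The match is largely carried by the lower Bcl6 cKO signal that the 8 genes share with Atp1b1, and nothing is read from it about common control.

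Within the Bcl6 cKO group Atp1b1 read highest on replicate 1, the array with high Y-linked signal, and so did 7 of the 8 genes. Within wild type, Atp1b1 read highest on replicate 4 (11.42), the array with low Y-linked signal. Smpdl3a, Traf3ip3, Neurl3, Rasgrp2 and Mtss1 did so too, while Il10ra and Tlr1 read highest on replicate 2 and Ndrg1 on replicate 1. The likeness was computed over the same arrays and favours such a match, so this too is a description. Smpdl3a read 10.10, 9.34, 9.57 and 9.38 in Bcl6 cKO replicates 1 to 4, against 10.18, 10.34, 10.21 and 10.44 in wild-type replicates 1 to 4, so that replicate 1 lay close to wild type. Ndrg1 differed, with its highest Bcl6 cKO signal on replicate 3. It lay between 9 and 9.15 on Bcl6 cKO arrays, against 9.61 to 9.75 on wild-type arrays. By the same measure Atp1b3 ranked 3192, Fxyd5 3810 and Atp1b2 15737 of 19937 genes. These ranks largely restate the small differences of the 3 subunits between the genotypes.

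**Figure D5:**
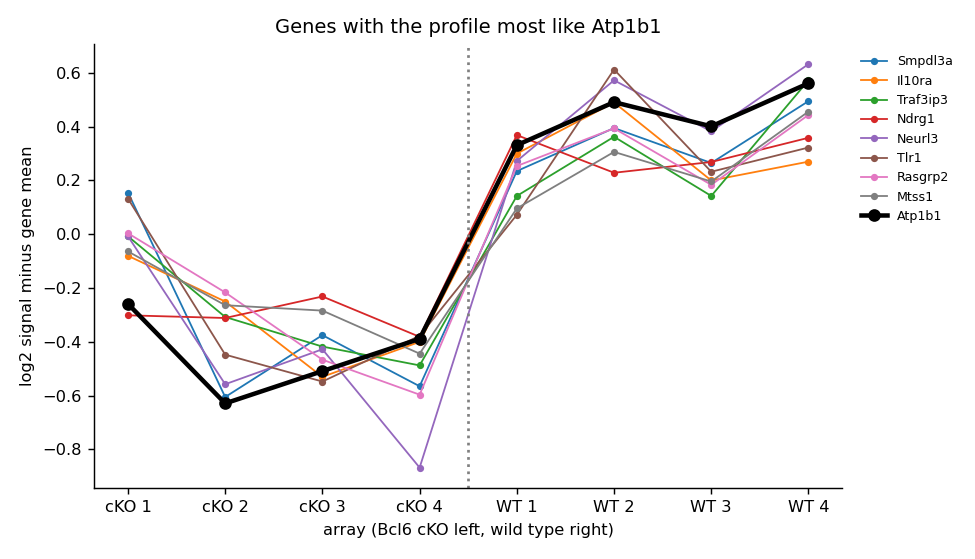
Log2 signal minus each gene's mean on the 4 Bcl6 cKO arrays (left) and the 4 wild-type arrays (right) for Atp1b1 (black) and the 8 genes most like it. Lines join points of a gene for reading only, since arrays have no order. All 9 genes are lower on average in Bcl6 cKO, and Atp1b1 and 7 of the other 8 are highest within that group on replicate 1.

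A marker of another cell type that was also lower in Bcl6 cKO is given here. It is 1 of the 16 such markers and was named after its values were seen. The CD8 chain gene Cd8b1 read 10.52, 10.56, 10.78 and 10.41 in Bcl6 cKO replicates 1 to 4, against 10.90, 11.12, 11.02 and 11.12 in wild-type replicates 1 to 4. Its groups did not overlap, as in 5.97% of all genes, and its log2 difference was -0.47 (adjusted p = 0.0541 in limma). Cd8a, which encodes the chain that the product of Cd8b1 needs to reach the surface, read between 6.90 and 7.05 in Bcl6 cKO, against 6.93 to 7.14 in wild type, with overlapping groups. The mean of both genes lay between 8.66 and 8.915 on Bcl6 cKO arrays, against 8.915 to 9.13 on wild-type arrays. Their part in the difference of Atp1b1 was not tested.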

How the data were processed

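RNA of 4 Bcl6 cKO and 4 wild-type samples was read on 8 Affymetrix arrays made by the whole-transcript protocol. The authors deposited log2 signals, with 1 value for each transcript cluster on each array. The tools named, per the submitters' processing notes, are Partek and RMA, without versions or settings. RMA aims at 1 distribution for all arrays and compresses differences of dim clusters, so small differences of dim genes are understated. In the deposited values, array medians over the genes tested still ran from 7.57 to 7.64. The base of 2 follows from RMA and the values' range.

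Of 35556 clusters, 21789 had 1 gene symbol, 1621 several and 12146 none in the platform annotation used here. Each symbol was represented by its cluster of highest mean over the arrays, giving 19938 genes. The test was limma 3.58.1 (R 4.3.3; lmFit, eBayes without trend, no covariate), with Benjamini-Hochberg adjustment across all genes and a threshold of 0.05. Differences are Bcl6 cKO minus wild type. The steps were tested on simulated data. Chromosomes and promoter windows came from RefSeq tables of GRCm38.p6.

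The members, the 5 lists of pump, transport and regulator genes and the settings were chosen with earlier results of these data known. Named were the members, the other pump subunits measured here, 3 genes per other list by smallest p (up to 6 where more than 3 passed), and the 8 genes most like Atp1b1 by the root mean square difference of mean-centred log2 values, leaving out antigen receptor segments, olfactory and vomeronasal receptors, small RNA genes, clones and predicted models. The fit of the genotype by sex product, the other settings, such as scaling, filters, sex as a term and leaving out each array, and their effects are given with the results and in the closing section. Arrays have no read depth, and their number limits the precision.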

Additional observations from a re-analysis of the deposited data

Results flagged for a closer look

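Among 72 groups of arrays of 36 named genes, 1 held a sample far from the others, where chance alone flags about 1 group in 20. Atp12a, a relative of the pump's catalytic subunit, read 5.39 in wild-type replicate 1, below the 5.66 to 5.70 of the other wild-type arrays. Its Bcl6 cKO arrays ran from 5.49 to 5.70. None of the groups of Atp1b1, Atp1b2, Atp1b3 or Fxyd5 was flagged in this way.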

How the results depend on the processing

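The difference of Atp1b1 was below 0 in all 19 alternatives, from -1.07 to -0.67, and lost its call only within arrays with high (-0.67) or low (-1.07) Y-linked signal, where 0 genes passed in limma. Leaving out an array it ran from -0.95 to -0.83, and its adjusted p in limma stayed under 0.05 in all 8 fits. All these fits reuse the contrast with which the family was chosen, so they describe its stability and add no support. Atp1b3 was -0.0033 within arrays with high Y-linked signal. The differences of Atp1b2, Atp1b3 and Fxyd5 kept their sign in all alternatives run.

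Of 19938 genes 44 passed, and the count was 91 with trend and robust moderation, 80 with array weights, 67 and 75 with filters at the 30th percentile and the median of mean signal, 10 with sex, 93 with odd or even replicate number, 10 with both, 132 at a threshold of 0.1, and 11 to 139 leaving out an array. It was 139 without Bcl6 cKO replicate 1, 22 and 11 and 11 without replicates 2, 3 and 4, and 11, 18, 18 and 12 without wild-type replicates 1 to 4. Of the 109 listed genes 1 passed, Arrb1 of the pump regulators. The count was 2 with trend and robust moderation, with either filter and with the mean of a gene's clusters. It was 0 after quantile normalization, 0 with sex, 0 with sex and odd or even number, and 0 to 4 leaving out an array. The cause of these moves was not tested. After median centring 19 genes were higher and 13 lower, after quantile normalization 22 and 14, against 21 and 23 as deposited.

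The replicate numbers were not shown to pair the samples, since same-numbered arrays of the genotypes correlated, in deviations from their group means, by 0.073, 0.206, 0.203 and 0.205, the first below the 0.1 required of every pair. As a hint from the data, Bcl6 cKO replicates 2, 3 and 4 correlated best with the wild-type array of their own number, and replicate 1 with wild-type replicate 3 (0.186). With the replicate block 35 genes passed, 0 of the listed genes did, and the difference of Atp1b1 was -0.89 (adjusted p = 0.017 in limma). The genotype by sex product of Atp1b1 ran from 0.34 to 0.46 leaving out an array, that of Atp1b2 from 0.01 to 0.15, of Atp1b3 from 0.06 to 0.12 and of Fxyd5 from 0.01 to 0.06, and none passed. It cannot be estimated without Bcl6 cKO replicate 1 or wild-type replicate 4. The other cluster of Atp1b3, added after seeing the data, gave -0.06.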
